A study of Homo sapiens with 40 samples.

Results

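RNA captured beside the endoplasmic reticulum (ER) membrane was compared with RNA captured in the cytosol in 12 of the 40 libraries of a proximity-labelling study: 4 ERM enriched, 2 NES enriched, 4 ERM input and 2 NES input libraries. Membership followed the library titles. The cells were HEK293T, an established line derived from human embryonic kidney, and they made the peroxidase APEX2 fused to a targeting sequence: ERM for the cytosolic face of the ER membrane or NES, a nuclear export signal, for the cytosol. Every one of these cultures, both constructs alike, took up 6-thioguanosine (s6G) at 100 uM for 5 h, and 0.5 mM biotin-phenol was present in the final 30 min. Labelling was started with 1 mM H2O2 and ran 1 min. Enriched RNA was the part of 6.5 ug that bound streptavidin beads, and inputs were 0.3 ug of the same RNA before the beads. After polyA selection, enriched libraries had 15 PCR cycles and inputs 11. Neither construct had an arm without labelling among these libraries, and where in the cell each fusion protein sat was not measured here.

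Proteins that are secreted or sit in membranes are mostly made on ribosomes bound to the ER: the signal recognition particle brings the ribosome to its receptor on the membrane, and the growing chain enters the SEC61 channel. Their mRNAs therefore lie along the ER surface while they are translated. Cytosolic, nuclear and most mitochondrial proteins are made on free ribosomes, and tail-anchored membrane proteins are inserted only after translation ends. A thionucleoside enters RNA made while it is present, and the radical that APEX2 makes from biotin-phenol reacts with it, so capture depends on when an RNA was made as well as on where it was. Levels are given as CPM, the count of a gene relative to the total of its library, scaled by TMM, the trimmed-mean method of edgeR. A gene was called where edgeR's quasi-likelihood test gave a Benjamini-Hochberg adjusted p below 0.05 over all tested genes.

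Total counts ran from 5342584 to 14496768 in the ERM enriched libraries, from 7761433 to 8229934 in the NES enriched libraries, and from 5415679 to 12602028 in the inputs. Before TMM scaling, SEC61B, a subunit of the SEC61 channel, was at 2700 to 3450 CPM in the 4 ERM enriched libraries, 1090 to 1260 CPM in the 4 ERM inputs and 57.1 to 235 CPM in the other 32 libraries of the study. It therefore marks the construct in each ERM library, and it is read below as a check of the labels and not as a result, since reads of the cells' own gene and of the construct cannot be told apart. The sample characteristics of the 4 ERM enriched libraries name 4-thiouridine where their titles and the study design name s6G. ATF3, a stress-induced transcription factor, was at 935 to 1030 CPM in them, against 49.5 to 85.1 CPM in enriched libraries of the mitochondrial construct with 4-thiouridine and 280 to 337 CPM in those with s6G. Of genes known to be active in HEK293T cells, NEFL, NEFM, LIN28B and INA had at least 25.6 CPM in each of the 12 libraries. Of 13 defining markers of blood, endothelial, muscle, liver and skin cells, 11 had under 1 CPM in each library and 4, CD3E, HBB, KRT5 and KRT14, had no count at all; all 13 together summed to 1.34 to 4.43 CPM.

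The ERM libraries fell into pairs. Enriched libraries 1 and 2 correlated at r = 0.981 across genes (log2 CPM) and 3 and 4 at 0.988, against 0.968 to 0.978 between the pairs. Libraries 3 and 4 were also deeper, with 13885706 and 14496768 counts, against 5342584 and 6330023 in libraries 1 and 2. The labels give no batch, so the source of the pairs was not tested. The leading counts are therefore also given for libraries 1 and 2 and for libraries 3 and 4, each pair against the same NES libraries.

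Between the enriched libraries, 511 of 15619 tested genes were higher in ERM than in NES (3.27%) and 424 were lower (2.71%). With libraries scaled by total counts in place of TMM, which moved the median of all genes to 0.08, there were 732 and 119. In 933 of the 935 genes called with TMM no ERM value fell within the range of the NES values. Such separation was common among all tested genes: all 4 ERM libraries lay above both NES libraries for 12.6% of them and below both for 18.7%. Most changes were small, and 149 of the 935 reached a log2 fold change of 1 in size. With ERM libraries 1 and 2 alone, 1139 genes were higher and 580 lower, and with 3 and 4 alone, 1659 and 2021. The NES side rested on 2 libraries: without NES enriched library 1 there were 8 higher and 7 lower calls, and without library 2 there were 122 and 182. Without ERM enriched library 3 there were 316 and 171.

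RNAs of secretory and membrane proteins took a larger share of ERM enriched libraries: the 17 lists described next summed to 4.25 to 4.57% of counts there, against 2.89 to 2.93% in the NES enriched libraries. Before capture the shares overlapped, at 3.53 to 3.66% in the ERM inputs and 3.57 to 3.69% in the NES inputs. In these 17 lists of secretory and membrane protein genes, 369 genes were tested, 115 of them (31.2%) were higher in ERM and 2 (0.542%) were lower, IDS and PTCH1. Outside these lists 2.60% of tested genes were higher and 2.77% lower. The median log2 fold change over the 369 genes was 0.44, beside -0.05 over all tested genes. Against the NES mean, the list median was 0.47, 0.41, 0.44 and 0.41 in ERM libraries 1 to 4, a narrow range. All 4 ERM libraries lay above both NES libraries for 226 of the 369 genes (61.2%) and below both for 6 (1.63%). The lists were chosen with earlier results of these data known, so these counts are a description. Libraries 1 and 2 alone gave 216 higher calls and 1 lower, beside 7.72% and 3.93% of all genes. Libraries 3 and 4 gave 198 and 14, beside 10.2% and 12.5% of all genes. Without NES enriched library 1 there were 3 higher calls with a median still at 0.44, and without library 2 there were 22 with a median of 0.43. Without ERM enriched library 3 there were 75. Because these are bulk libraries, a large change in few cells and a small one in all of them cannot be told apart.

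**Figure D1:**
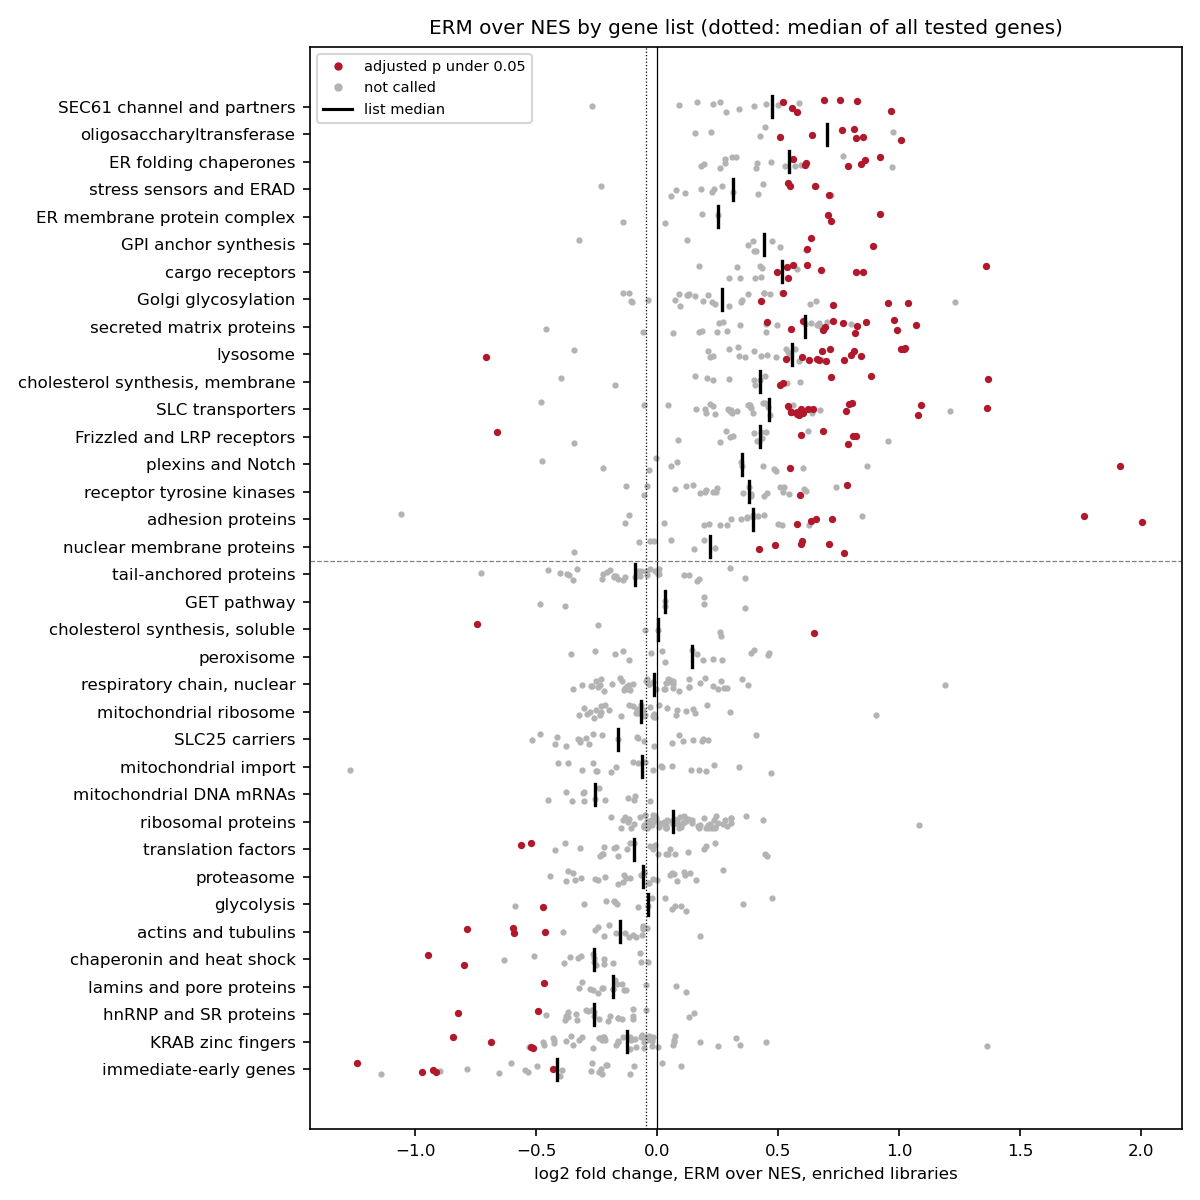
Log2 fold change of ERM over NES in the enriched libraries (x) for each tested gene of 36 lists (each point is a gene; red, adjusted p below 0.05 by edgeR; black bar, list median; dotted line, median of all tested genes). The 17 secretory lists above the dashed line have medians from 0.22 to 0.70, and the plotted lists below it from -0.42 to 0.14. Only 36 of the 45 lists are plotted. Among those left out, 11 long noncoding RNAs had a median of 0.36 and 2 markers of other cell types 0.31. The separation of medians therefore holds for the plotted lists only.

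The machinery that takes proteins into the ER was among the higher genes. Of 18 genes for the SEC61 channel and its partners, 7 were higher and none lower (median 0.48). SEC61A1 (ENSG00000058262, chromosome 3, 128051641 to 128071683 in GRCh38), the pore-forming subunit, had 421, 396, 433 and 457 CPM in the ERM enriched libraries, against 229.7 and 207 CPM in the NES enriched libraries. Its lowest ERM value was well above the higher NES value, and the log2 fold change was 0.97 (SE 0.14, adjusted p = 0.00126) by edgeR. SSR1, a subunit of the translocon-associated TRAP complex, had 277, 289.9, 259 and 247 CPM in ERM, against 154 and 149 CPM in NES, a log2 fold change of 0.82 (SE 0.13, adjusted p = 0.00147) by edgeR. SRPRB, the membrane-bound subunit of the signal recognition particle receptor, had 216, 252, 259.7 and 267 CPM in ERM, against 160.1 and 134 CPM in NES, a log2 fold change of 0.76 (SE 0.14, adjusted p = 0.00501) by edgeR. SRPRA, SSR2, SSR3 and TRAM1 were also called, at 0.52 to 0.69.

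Oligosaccharyltransferase adds N-glycans to chains as they emerge into the ER. Of 12 genes tested, 7 were higher and none lower, with a median of 0.70 and all 12 estimates above 0. RPN1, a subunit that holds the enzyme at the channel, had 249, 287, 299 and 305 CPM in the ERM enriched libraries, against 148 and 136 CPM in the NES enriched libraries. In the inputs RPN1 was higher than in either enriched group, at 392, 408, 539 and 545 CPM in ERM and 331 and 343 CPM in NES. Its log2 fold change between the enriched libraries was 1.01 (SE 0.16, adjusted p = 0.0018) and that between the inputs 0.48 (SE 0.15, adjusted p = 0.123) by edgeR. The catalytic subunits STT3A and STT3B were at 0.81 and 0.51, and DDOST, TUSC3, RPN2 and MAGT1 at 0.64 to 0.85.

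ER folding proteins followed. Of 22 chaperones and oxidoreductases tested, 7 were higher and none lower (median 0.54), and all 22 estimates were above 0. HSPA5, the ER chaperone BiP, had 2128, 2289, 2312 and 2334 CPM in the ERM enriched libraries, against 1245 and 1152 CPM in the NES enriched libraries. The inputs held much less and overlapped, at 661, 600.4, 730.0 and 758 CPM in ERM and 691 and 621 CPM in NES. The log2 fold change of HSPA5 was 0.92 (SE 0.14, adjusted p = 0.0018) between enriched libraries and 0.07 (SE 0.14, adjusted p = 0.842) between inputs by edgeR. P4HB, the protein disulfide isomerase, had 386, 378, 537 and 573 CPM in ERM, against 269 and 248 CPM in NES, with a log2 fold change of 0.86 (SE 0.19, adjusted p = 0.0117) by edgeR. CALR, CANX, PDIA4, MANF and PPIB were called at 0.56 to 0.84. Among 17 genes for stress sensors and for ER-associated degradation, 4 were higher, among them SCAP, HERPUD1 and DERL1, and none lower (median 0.31).

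Of the subunits of the ER membrane protein complex, which inserts membrane segments into the bilayer, 3 of 7 were higher: EMC7, EMC3 and EMC10, at 0.92, 0.72 and 0.71. Of 12 genes for making glycosylphosphatidylinositol anchors, 3 were higher, PIGT, PIGG and GPAA1, at 0.89, 0.64 and 0.62. No gene of either list was lower.

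Farther along the pathway, 9 of 18 cargo receptors were higher and none lower (median 0.52). LMAN2, a lectin that carries glycoproteins between ER and Golgi, had 176, 187, 224 and 249.9 CPM in ERM, against 122 and 110.0 CPM in NES, a log2 fold change of 0.85 (SE 0.17, adjusted p = 0.00863) by edgeR. TMED9, a p24 cargo receptor, had 272, 279.7, 359 and 405 CPM in ERM, against 192 and 181 CPM in NES, with the nearest values of the groups 272 and 192. KDELR3, which returns escaped ER proteins, was called at 1.36, with 8.85, 9.29, 6.65 and 8.94 CPM in ERM, against 3.21 and 3.31 CPM in NES. Among 32 Golgi glycosylation enzymes 5 were higher and none lower (median 0.27). CHPF, which polymerises chondroitin, had 149, 129.8, 129 and 153 CPM in ERM, against 72.8 and 63.8 CPM in NES, a log2 fold change of 1.04 (SE 0.15, adjusted p = 0.00115) by edgeR. EXT2, of heparan sulfate synthesis, was at 0.95, MAN1A1 at 0.73, MAN1B1 at 0.52 and GALNT2 at 0.43. With ERM libraries 1 and 2 alone 17 of the 32 were higher, beside 7.72% of all genes. With 3 and 4 alone 10 were higher and 1 lower, beside 10.2% and 12.5% of all genes.

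Secreted and lysosomal proteins are also made at the ER. Of 33 secreted matrix and extracellular proteins, 13 were higher and none lower (median 0.61). COL18A1, a basement membrane collagen, had 53.6, 38.7, 55.3 and 67.8 CPM in ERM, against 25.8 and 25.9 CPM in NES, a log2 fold change of 1.07 (SE 0.19, adjusted p = 0.00399) by edgeR. FN1, fibronectin, was at 0.77, COL4A2 at 0.69, LAMB2 at 0.86 and SERPINH1, a chaperone of collagen, at 0.82. IGFBP2, an insulin-like growth factor binding protein, had 49.7, 41.5, 63.5 and 81.3 CPM in ERM, against 27.5 and 32.5 CPM in NES, and it was higher in the ERM inputs too. Of 34 lysosomal genes, 15 were higher and 1, IDS, was lower (median 0.56). GRN, progranulin, had 100.1, 103, 158 and 183 CPM in ERM, against 68.8 and 66.0 CPM in NES, a log2 fold change of 1.02 (SE 0.23, adjusted p = 0.014) by edgeR. The protease genes CTSB, CTSD and CTSZ, the glycosidase genes GAA, GLB1, GUSB and HEXA and the membrane protein genes LAMP1 and LAMP2 were all called, at 0.53 to 1.03. IDS, iduronate-2-sulfatase, had 32.7, 26.2, 27.6 and 25.5 CPM in ERM, against 45.9 and 45.2 CPM in NES, a log2 fold change of -0.71 (SE 0.16, adjusted p = 0.0146) by edgeR.

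Transporters cross the membrane many times. Of 46 solute carriers of the plasma membrane and organelles other than mitochondria, 16 were higher and none lower (median 0.46). SLC3A2, the heavy chain shared by several amino acid exchangers, had 1335, 1332, 1727 and 1803 CPM in ERM, against 813 and 644 CPM in NES, a log2 fold change of 1.09 (SE 0.17, adjusted p = 0.0018) by edgeR. SLC5A3, a myo-inositol transporter, had 70.8, 58.3, 49.97 and 39.2 CPM in ERM, against 22.1 and 29.3 CPM in NES, a log2 fold change of 1.08 (SE 0.20, adjusted p = 0.00556) by edgeR. The inputs of SLC5A3 were not called, at 24.9, 26.6, 21.6 and 26.0 CPM in ERM and 31.2 and 31.0 CPM in NES. The amino acid transporters SLC1A5, SLC7A1, SLC7A5, SLC38A1 and SLC38A2 were called at 0.54 to 0.62. Over all SLC symbols outside the mitochondrial SLC25 family, 28 of 175 tested (16%, beside 3.27% of all genes) were higher and none lower, and over the TMEM symbols, which name predicted transmembrane proteins, 19 of 169 (11.2%) were higher and none lower. Without NES enriched library 1 these became 2 and 0 higher, without library 2 they were 9 and 2, and without ERM enriched library 3 they were 18 and 12. These symbol families were chosen after the values were seen.

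Receptors and adhesion proteins are inserted into the ER before they reach the cell surface. Among 20 Frizzled, LRP and related receptors, 5 were higher (LRP2, FZD6, LRP5, FZD2 and SMO) and PTCH1, the Hedgehog receptor, was lower. LRP5, a Wnt co-receptor, had 62.6, 56.8, 55.4 and 58.7 CPM in ERM, against 30.8 and 36.6 CPM in NES, a log2 fold change of 0.79 (SE 0.15, adjusted p = 0.0063) by edgeR. PTCH1 had 48.8, 40.8, 33.1 and 31.7 CPM in ERM, against 56.7 and 64.6 CPM in NES, a log2 fold change of -0.66 (SE 0.19, adjusted p = 0.0479) by edgeR. Its inputs were at 18.6, 18.5, 13.1 and 12.8 CPM in ERM and 21.8 and 29.6 CPM in NES, a log2 fold change of -0.73 (SE 0.21, adjusted p = 0.102) by edgeR. Of 27 receptor tyrosine kinases and related receptors, PTK7 and FGFR4 were higher, at 0.79 and 0.59, and none lower. Of 15 plexins, Notch receptors and ligands, PLXNB2 and PLXNA4 were higher. PLXNA4 was at most 5.47 CPM in any enriched library. On beads without labelling, from cells of other constructs that had no s6G, it was 3.14 above input on the log2 scale. Of 26 adhesion proteins, 6 were higher (CDH1, CDH2, PCDH1, PCDH9, DSG2 and NCAM1) and none lower. CDH1 and PCDH1 were low, at most 4.67 and 5.49 CPM in any enriched library. Inner nuclear membrane and pore membrane proteins, made on the ER that is continuous with the nuclear envelope, had 6 of 14 higher (NUP210, LEMD2, TMEM43, SUN2, SUN1 and NEMP1) and none lower. Of 18 lamins and soluble pore proteins none was higher and 1, NUP62, was lower.

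**Figure D2:**
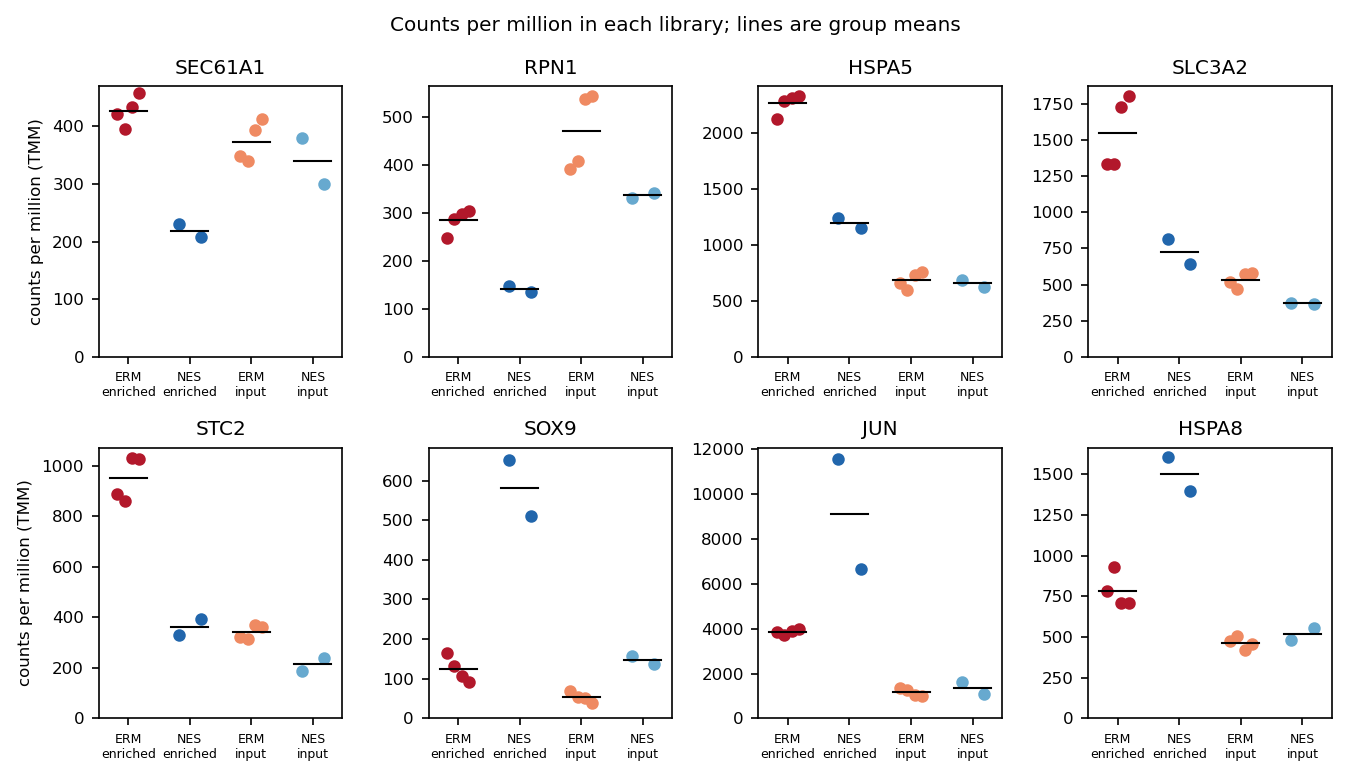
TMM-scaled CPM (y, linear from 0) of 8 genes in each library, with the group mean as a line. SEC61A1, RPN1, HSPA5, SLC3A2 and STC2 are higher in all 4 ERM enriched than in both NES enriched libraries, and SOX9, JUN and HSPA8 lower.

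In cholesterol synthesis the later enzymes sit in the ER membrane and several earlier ones are soluble. Of 17 membrane enzymes and regulators, 5 were higher and none lower (median 0.42). DHCR7, a sterol reductase of the ER membrane, had 142, 141, 184 and 195 CPM in ERM, against 96.1 and 83.8 CPM in NES, a log2 fold change of 0.88 (SE 0.16, adjusted p = 0.00399) by edgeR. CYP51A1 was at 1.37, SQLE at 0.52 and SREBF2, the transcription factor that is held in the ER membrane, at 0.51. Among 7 soluble enzymes the median was 0.00, but it was -0.27, -0.15, 0.21 and 0.33 in ERM libraries 1 to 4 against the NES mean, where the membrane list had 0.37, 0.40, 0.42 and 0.40. With libraries 3 and 4 alone the soluble list had 3 of 7 higher, 1 lower and a median of 0.27, beside 11 of 17 higher, 2 lower and a median of 0.35 in the membrane list. In that fit 10.2% of all genes were higher and 12.5% lower. The difference between the lists was not tested. MVK was higher at 0.65, while IDI1, an isomerase of the cytosol and peroxisome, was lower, with 177, 231, 197 and 181 CPM in ERM, against 317 and 343 CPM in NES, a log2 fold change of -0.75 (SE 0.14, adjusted p = 0.00526) by edgeR. HMGCS1 and FDPS were at -0.05 and 0.00, neither called.

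Other membrane proteins enter their membrane after translation. None of 35 tail-anchored proteins was called in either direction, a count near the background of 3.27% higher and 2.71% lower over all genes, and their median was -0.09, or 0.03 when libraries were scaled by total counts. The syntaxins STX4 and STX5 were at -0.03 and 0.17, VAMP2 at -0.01, SEC22B at 0.01, VAPA at -0.18 and emerin (EMD), an inner nuclear membrane protein, at 0.01. In libraries 3 and 4 alone 3 of the 35 were higher and 4 lower, and in libraries 1 and 2 alone 1 was lower. Of all genes, 10.2% were higher and 12.5% lower with libraries 3 and 4, and 7.72% and 3.93% with 1 and 2. Of 7 genes of the GET pathway, which inserts tail-anchored proteins, none was called, too few genes to set against the background. Mitochondrial carriers of the SLC25 family, membrane proteins that are imported after translation on free ribosomes, had no call among 25 (median -0.16), and 3 higher and 5 lower calls with ERM libraries 3 and 4 alone. An adjusted p above the threshold does not show that these genes were alike in both places: the SE of STX4 was 0.16 on the log2 scale. The tail-anchored median lay below 0 in each of the 4 ERM libraries, at -0.27, -0.13, -0.08 and -0.08, where the secretory median lay above.

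Most proteins of the other cytosolic and mitochondrial groups are made on free ribosomes, those encoded by mitochondrial DNA inside the organelle. Calls in these groups are set beside 3.27% higher and 2.71% lower over all tested genes. None of 76 ribosomal proteins, 30 proteasome subunits, 20 tRNA synthetases, 48 nuclear-encoded respiratory chain subunits, 38 mitochondrial ribosomal proteins, 22 import translocase genes, 17 peroxisomal genes or 13 mRNAs of mitochondrial DNA was called. Over the cytosolic lists together, 1 of 394 genes was higher, MVK (0.254%, beside 3.27% of all genes), and 19 were lower (4.82%, beside 2.71%). With total counts as the scale these were 3 and 5, and the median was 0.04 in place of -0.08, so the direction of this group turned with the scale. With ERM libraries 3 and 4 alone, 57 of the 394 were higher and 60 lower, beside 10.2% and 12.5% of all genes. Among actins, tubulins and their partners 4 of 20 were lower, or 1 with total counts as the scale. ACTG1, a cytoplasmic actin, had 1388, 1539, 1322 and 1292 CPM in ERM, against 2149 and 2034 CPM in NES, a log2 fold change of -0.59 (SE 0.14, adjusted p = 0.0201) by edgeR. HSPA8, the constitutive cytosolic chaperone HSC70, had 779.7, 927, 706 and 707 CPM in ERM, against 1606 and 1398 CPM in NES, a log2 fold change of -0.95 (SE 0.14, adjusted p = 0.00147) by edgeR. Its co-chaperone DNAJB1 was at -0.80. HSPA8 and the ER chaperone HSPA5 are relatives of the HSP70 family, and they stood on opposite sides of the comparison.

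The cytosolic and mitochondrial medians depended on which ERM libraries were read. Ribosomal proteins had medians of -0.35, 0.03, 0.22 and 0.32 in ERM libraries 1 to 4 against the NES mean, and proteasome subunits -0.42, -0.22, 0.08 and 0.18. The same 4 libraries gave 0.43, 0.61, 0.83 and 0.80 for oligosaccharyltransferase and 0.55, 0.45, 0.45 and 0.41 for the solute carriers. The ribosomal and proteasome medians had opposite signs in ERM libraries 1 and 4, and those of the secretory lists were above 0 in every ERM library. In libraries 3 and 4 alone, 32 of 76 ribosomal protein genes were called higher, beside 10.2% of all genes.

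**Figure D3:**
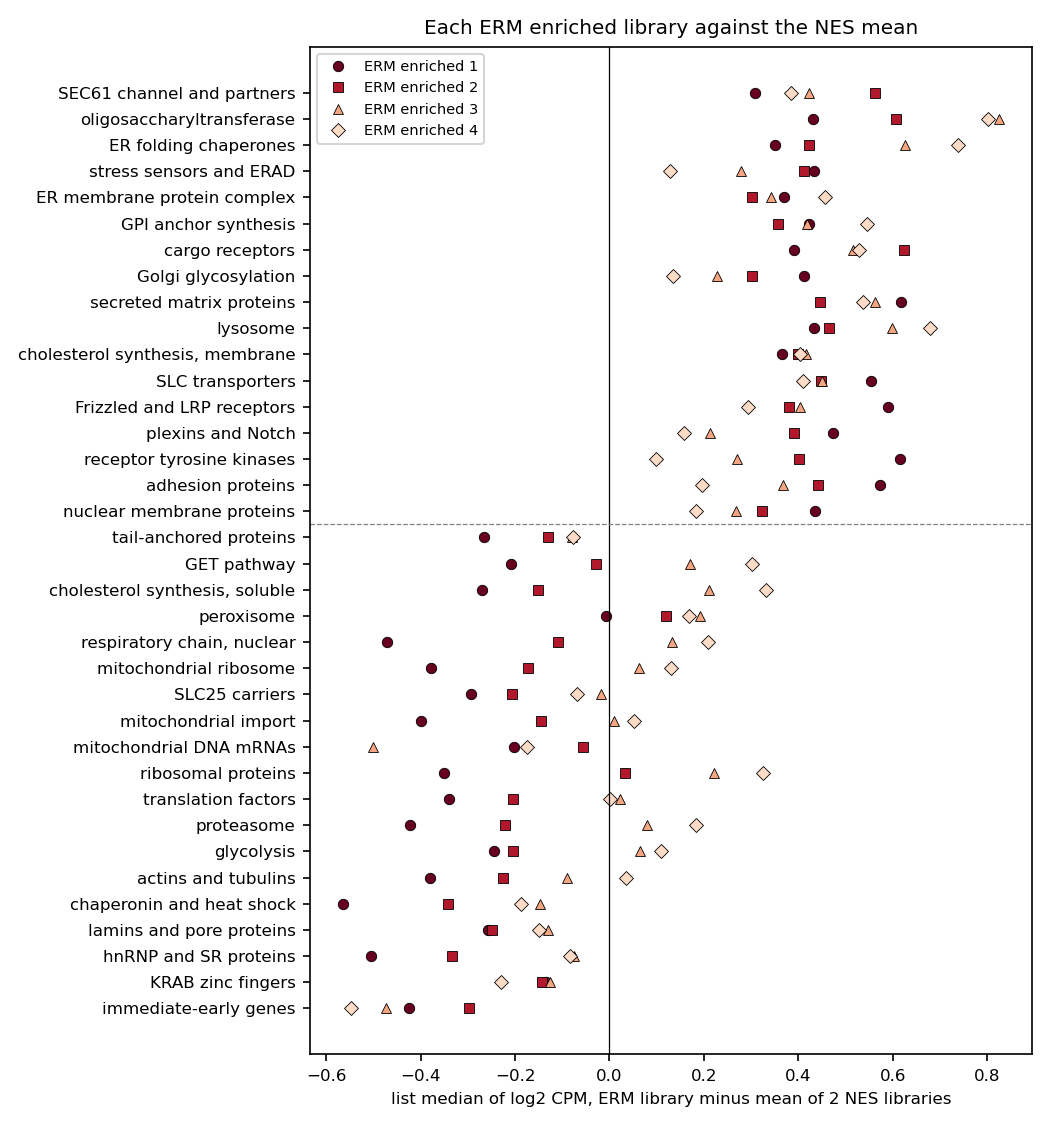
List medians of log2 CPM in each ERM enriched library minus the mean of the 2 NES enriched libraries (x), for the same 36 lists. In all 17 lists above the dashed line the 4 ERM libraries lie above 0, and several lists below it run from negative in library 1 to positive in library 4.

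Most of the 12 lower genes named by size encode transcription factors, a description of genes picked for their folds. The rule took the lowest folds among genes with a mean of at least 4 on the log2 CPM scale, no overlap between groups and a call in the paired difference as well. SOX9 (ENSG00000125398, chromosome 17, 72121020 to 72126416 in GRCh38), a developmental regulator, had 165, 131, 106 and 91.3 CPM in the ERM enriched libraries, against 653 and 511 CPM in the NES enriched libraries, a log2 fold change of -2.24 (SE 0.21, adjusted p = 4.07e-05) by edgeR. It was also lower in the ERM inputs, with 67.9, 55.0, 50.01 and 37.5 CPM against 158 and 137 CPM in the NES inputs. ZNF503, a zinc finger repressor, had 1916, 1845, 1919 and 1959 CPM in ERM, against 7102 and 4346 CPM in NES, a log2 fold change of -1.58 (SE 0.20, adjusted p = 0.00045) by edgeR. The 2 NES libraries themselves lay far apart here, as they did for ZIC2, a zinc finger factor of neural development, with 360.2, 363, 286 and 292 CPM in ERM, against 1569.8 and 739 CPM in NES. SNAI2, a repressor of epithelial genes, was at -1.39, and BRD2, a reader of acetylated histones, at -1.12. HOXA13, HOXA9, HOXD13 and JUN, also among the 12, are described below. The remaining ones were MIDN (-1.48), KCTD12 (-1.21) and ENSG00000274270 (-1.25), an ID without a symbol.

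Of HOX genes, which encode body-axis transcription factors, 14 of 33 tested (42.4%, beside 2.71% of all genes) were lower and none higher, with a median of -0.60. HOXA13 had 75.2, 76.6, 56.9 and 48.4 CPM in ERM, against 175 and 145 CPM in NES, a log2 fold change of -1.32 (SE 0.18, adjusted p = 0.000806) by edgeR. HOXD13 had 415, 415, 441 and 476 CPM in ERM, against 1338 and 717 CPM in NES, a log2 fold change of -1.23 (SE 0.19, adjusted p = 0.0018) by edgeR. HOXA9 was at -1.30. For 22 of the 33 genes, beside 18.7% of all tested genes, all 4 ERM libraries lay below both NES libraries. With total counts as the scale 9 HOX genes were lower. Of 422 genes with a ZNF symbol 26 (6.16%) were lower and none higher, and of 53 with a RAB symbol, small GTPases of membrane traffic that are made in the cytosol, 5 (9.43%) were lower and none higher. Total counts as the scale left 3 ZNF and 1 RAB genes lower. Without NES enriched library 1 no gene of the 3 families was called, and without library 2 there were 12 HOX, 13 ZNF and 2 RAB genes lower. Without ERM enriched library 3 there were 8 ZNF genes lower, and without library 4 there were 14. Leaving out 1 input library, which changes the shared spread, left 8 or 9 ZNF genes lower for ERM input 3 and for either NES input. These families too were chosen after the values were seen.

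Immediate-early genes, which are induced fast and have short-lived mRNAs, had 5 of 26 lower (19.2%, beside 2.71% of all genes) and none higher, with a median of -0.42. With total counts as the scale 3 were lower and the median was -0.29. JUN, a subunit of the AP-1 factor, had 3839.6, 3736, 3888 and 3968 CPM in ERM, against 11558 and 6651 CPM in NES, a log2 fold change of -1.24 (SE 0.20, adjusted p = 0.00232) by edgeR. MYC had 700.1, 689, 492 and 494 CPM in ERM, against 1267 and 972 CPM in NES, a log2 fold change of -0.92 (SE 0.16, adjusted p = 0.004) by edgeR. JUNB, DUSP1 and IER2 were at -0.97, -0.93 and -0.43. The inputs went the other way, with 3 of 26 higher in ERM (ATF3, EGR1 and KLF6), beside 0.282% of all genes, none lower and a median of 0.43.

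The NES enriched libraries differed from each other in the lower genes. In 355 of the 424 lower genes NES enriched library 1 was above library 2, with a median difference of 0.22 on the log2 scale, against 256 of the 511 higher genes and 8479 of all 15619, with a median of 0.02. Its part in the lower calls was not tested beyond the fits without each library given above.

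The inputs showed how far the 2 cell populations differed before capture. There, 44 genes were higher in ERM (0.282%) and 93 lower (0.595%), with SEC61B, at 3.32, the highest of those that rose. RLE scaling gave 60 and 30 and total counts 40 and 308, so the balance of directions in the inputs depended on the scale. With ERM libraries 1 and 2 alone 920 genes were called between inputs, and with 3 and 4 alone 3091. Without NES input library 1 there were 2 calls and without library 2 there were 22, and leaving out 1 ERM input gave 41 to 64. Of the secretory lists, 3 genes were higher in the ERM inputs, SPARC, IGFBP2 and SLC1A4, and 1 was lower, MARCHF6, an ER ubiquitin ligase. The secretory median was 0.02, beside 0.01 over all genes. SPINT2, a membrane-bound protease inhibitor, had 61.2, 54.2, 57.6 and 64.5 CPM in the ERM inputs, against 22.4 and 31.6 CPM in the NES inputs, a log2 fold change of 1.14 (SE 0.19, adjusted p = 0.0129) by edgeR. Its enriched libraries differed by about the same, 1.26. EGR1, an immediate-early transcription factor, had 36.5, 38.3, 27.2 and 21.2 CPM in the ERM inputs, against 9.18 and 14.7 CPM in the NES inputs, a log2 fold change of 1.35 (SE 0.27, adjusted p = 0.0348) by edgeR. Between the enriched libraries EGR1 overlapped, at 27.8, 25.6, 19.1 and 19.5 CPM in ERM and 23.4 and 31.6 CPM in NES.

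XBP1, the transcription factor of the unfolded protein response, named after its values were seen, differed by as much before capture as after it. It had 209, 194, 203 and 212 CPM in the ERM inputs, against 88.7 and 112 CPM in the NES inputs, and 544, 602, 679 and 700.0 CPM in the ERM enriched libraries, against 288 and 321 CPM in the NES enriched libraries. Its log2 fold change was 1.03 (SE 0.15, adjusted p = 0.0073) in the inputs and 1.05 (SE 0.14, adjusted p = 0.000806) in the enriched libraries by edgeR. CHAC1, another gene of the stress response, was higher in the ERM inputs at 1.10, while HSPA5 and HERPUD1, which the same response induces, were at 0.07 and 0.49 there and not called. EGFL7 was higher in the inputs, at 1.10, and KCNJ2, a potassium channel, was lower there, at -1.37, as were MYO10 (-0.97) and RP11-104N10.2 (-1.01). EIF4A1 (-1.13), whose locus overlaps the readthrough gene SENP3-EIF4A1, and the pseudogene RPSAP15 (1.14) have uncertain counts. Across all tested genes the fold changes of enriched and input libraries correlated at r = 0.179, and over the 8463 genes with a mean of at least 4 on the log2 CPM scale at r = 0.358, both descriptions over genes that share libraries.

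**Figure D4:**
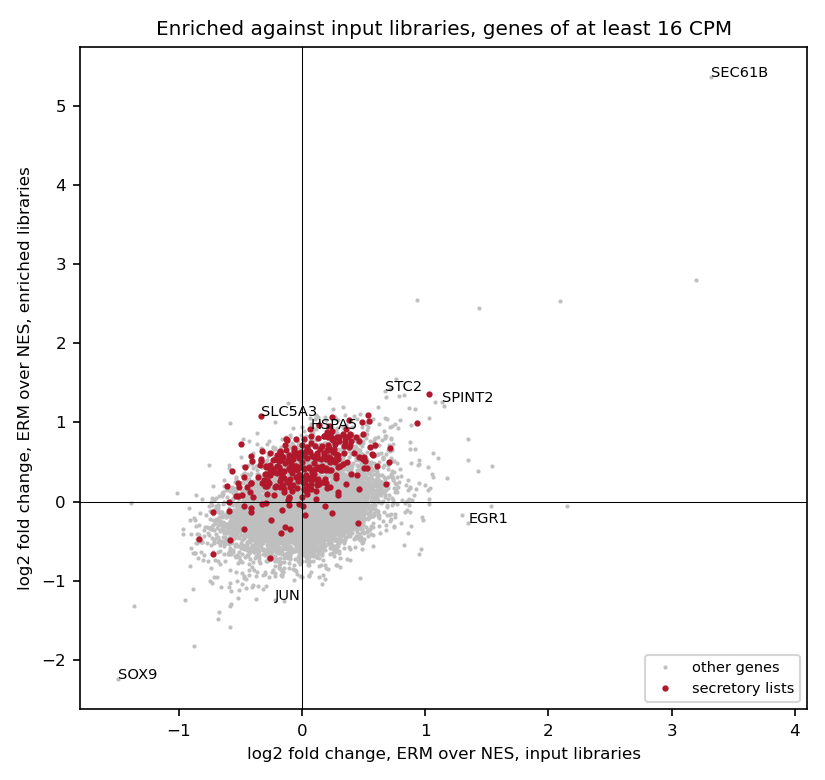
Log2 fold change of ERM over NES in the enriched libraries (y) against that in the inputs (x) for 8470 genes with a mean of at least 16 CPM in the enriched libraries, 305 of them in the secretory lists (red). The red points lie mostly above 0 on y and on both sides of 0 on x, and SEC61B, at 3.32 on x, lies far to the right.

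The difference of enrichments, enriched over input in ERM minus enriched over input in NES, sets each construct against its own inputs. Enriched and input libraries of the same number were taken, from their titles, as 1 culture before and after the beads. Their deviations from the group means correlated at 0.15 to 0.20 in the 4 ERM pairs. With 2 NES libraries the deviations are mirror images, so both NES pairs give 1 value, 0.19. ERM enriched libraries 1 and 3 correlated slightly more with another number's input (0.21 and 0.2), so these values do not single out the number. With the same-numbered pairs as a block, 393 genes were higher in ERM (2.52%) and 559 lower (3.58%). Without the block the same difference reached the threshold for SEC61B alone (0.0064% higher, 0% lower), with 2167 genes at an unadjusted p below 0.05 (edgeR). That unblocked fit gave 778 calls with ERM libraries 1 and 2 alone and 1482 with 3 and 4 alone, and no call without NES enriched library 1 or without NES input library 2. Of the 511 genes higher between enriched libraries, 190 (1.22% of tested genes) were also higher in the paired difference, and of the 424 lower ones, 169 (1.08%) were also lower. No gene was called in opposite directions. Without the block, the difference was above 0 for 502 of the 511 and below 0 for 408 of the 424. Both comparisons use the same enriched libraries, so agreement in calls and signs is in part built in. It is a description and no independent check.

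In the secretory lists the paired difference had 97 of 369 genes higher and 1 lower, with a median of 0.43. The lower one was SEC61G, a small SEC61 subunit that is itself a tail-anchored protein, at -0.71 (SE 0.20, adjusted p = 0.0432) by edgeR. SEC61A1 was at 0.82 (SE 0.12, adjusted p = 0.00209), HSPA5 at 0.86 (SE 0.13, adjusted p = 0.002) and SLC5A3 at 1.39 (SE 0.23, adjusted p = 0.00386) in the paired edgeR fit. Called between enriched libraries but not in the paired difference were SRPRB (0.41), IGFBP2 (0.02), SLC1A4 (0.33) and HERPUD1 (0.05). The solute carriers had 20 of 46 higher, the Golgi enzymes 10 of 32, the lysosomal genes 10 of 34 and the receptor tyrosine kinases 7 of 27, none of them lower. On the other side, 16 of 76 ribosomal protein genes were lower in the paired difference and none higher, with a list median of 0.07 between the enriched libraries and 0.46 between the inputs. Of the immediate-early genes 12 of 26 were lower, with JUN at -0.98 (SE 0.15, adjusted p = 0.00239) by edgeR. Of the tail-anchored genes 2 of 35 were lower, VAMP4 and BNIP3, a count near the 3.58% lower over all tested genes.

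In each direction 12 genes were named for the largest change among those called in both comparisons with a mean of at least 4 on the log2 CPM scale. Higher were STC2, HELLPAR, NPTX1, POR, BSG, SLC3A2, TMEM161A, SLC5A3, PLAT, BTN2A2, ABCA2 and PODXL, and all except HELLPAR, a long noncoding RNA, encode secreted or membrane proteins. That is a description of genes picked for their folds, and the share of such proteins over all tested genes was not counted. STC2 (ENSG00000113739, chromosome 5, 173314723 to 173328414 in GRCh38), the secreted hormone stanniocalcin 2, had 889, 862, 1030.4 and 1025 CPM in ERM, against 328 and 393 CPM in NES, a log2 fold change of 1.40 (SE 0.16, adjusted p = 0.000165) by edgeR. STC2 was also called higher in the ERM inputs, with 321, 313, 370 and 362.5 CPM against 188 and 241 CPM in the NES inputs. That input log2 fold change was 0.67 (SE 0.15, adjusted p = 0.0438) by edgeR, and the paired difference of STC2 was 0.72. POR, the ER-anchored reductase that serves cytochrome P450 enzymes, had 113, 87.4, 101 and 105 CPM in ERM, against 46.9 and 43.4 CPM in NES, a log2 fold change of 1.17 (SE 0.14, adjusted p = 0.000313) by edgeR. The POR inputs were not called, with 94.5, 87.2, 104 and 109 CPM in ERM and 84.5 and 81.3 CPM in NES. BSG, basigin, had 608, 572, 755 and 837 CPM in ERM, against 318 and 327 CPM in NES, a log2 fold change of 1.10 (SE 0.18, adjusted p = 0.00243) by edgeR. PLAT, tissue plasminogen activator, was at 1.07, PODXL, podocalyxin, at 1.06 and NPTX1, a secreted pentraxin, at 1.20.

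Enrichment over input showed on which side the lists moved. Of all tested genes, 34.3% were higher and 28.9% lower after capture in ERM, and 28.7% higher and 26.4% lower in NES, by edgeR. The secretory genes had a median log2 enrichment of -0.06 in ERM and -0.52 in NES, beside 0.11 and 0.01 over all tested genes. In unlabelled cells of the mitochondrial and lamina constructs, the secretory median was -0.38. Those cells had neither s6G nor biotin-phenol, so they give a background of the beads that is not matched to the ERM and NES cells. Of the 115 higher genes, 69 had estimates below input in both constructs, 20 above it in ERM and below it in NES, and 26 above it in both. Of all tested genes, 41.3% had estimates below input in both and 45.6% above it in both. SEC61A1 was at 0.19 in ERM and -0.64 in NES, RPN1 at -0.72 and -1.25, and HSPA5 at 1.72 and 0.87.

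Lists differed widely in enrichment within each construct. Matrix genes had medians of -1.34 in ERM and -1.65 in NES, and Frizzled and LRP receptors 1.23 and 0.91. In both lists the ERM median was the higher one. Immediate-early genes had medians of 1.12 in ERM and 1.90 in NES, while ribosomal protein mRNAs had -1.67 and -1.28. Of the 424 lower genes, 366 (86.3%) had estimates above input in both constructs. CPM are shares of a library, so a gain of some RNAs lowers the others.

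**Figure D5:**
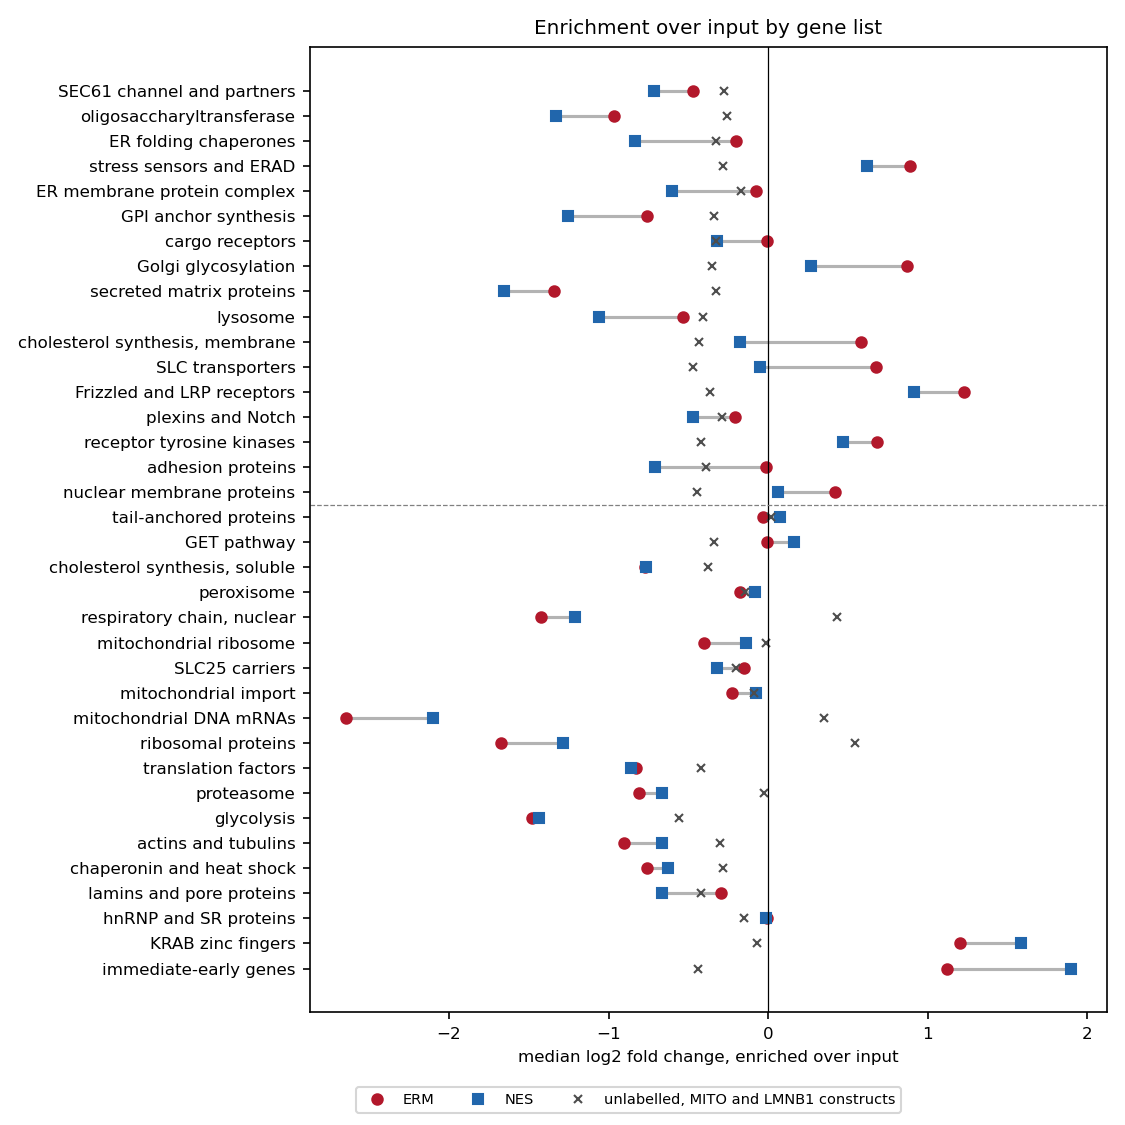
Median log2 fold change of enriched over input libraries (x) for each list shown in ERM (red circles), NES (blue squares) and unlabelled cells of the MITO and LMNB1 constructs, which had no s6G (crosses). In all 17 lists above the dashed line ERM lies to the right of NES, wherever the pair sits on the axis.

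The authors' deposited table of ERM over NES gives fold changes from a test of the same 6 enriched libraries. All 935 genes called here have the same sign there, and each has an unadjusted p below 0.05 in the authors' deposited table. For STC2 it gives a log2 fold change of 1.44 and for SEC61A1 1.01.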

How the data were processed

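RNA sequencing libraries of ERM and NES cells were analysed from the whole-series table of read counts per gene (57992 IDs, 56948 with a symbol), unnormalised, as deposited by the authors. The submitters' processing notes name DESeq2, HTSeq 0.7.2, deepTools 2.5.3, HISAT2 2.1.0, SAMtools and the build GRCh38, each without a role. No source used here gives the annotation, the strand setting, the promoter of a construct or whether a line was 1 clone. Gene positions are RefSeq's for GRCh38. The authors' deposited ERM over NES table holds a mean normalised signal (not used here), a log2 fold change and a p-value per gene. A DESeq2 fit of the 6 enriched libraries gave its fold changes to within 6.7e-05.

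A single edgeR 4.0.16 quasi-likelihood fit (R 4.3.3, limma 3.58.1) of 4 group means over the 12 libraries, with TMM scaling and filterByExpr, tested 15619 genes, with Benjamini-Hochberg adjustment over all of them. Groups came from the titles, which number biological replicates. The difference of enrichments was also fitted with construct and number as a block, because an enriched library and the input of its number were taken as the same culture. Their deviations correlated at 0.15 to 0.2, where the NES pairs give only 1 value. ERM enriched libraries 1 and 3 correlated slightly more with another number's input (0.21 and 0.2). Unlabelled values come from the MITO and LMNB1 controls, 2 enriched and 2 input libraries each, with construct as a term. These controls had neither s6G nor biotin-phenol. Low totals limit the precision of rare RNAs.

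Members and gene lists were chosen with earlier results of these data known. The genes named for size were to be called in the enriched libraries and in the difference of enrichments; without the block only SEC61B met this, so the blocked fit was used, a choice made after the counts were seen. Up to 3 called genes per list and 5 per direction in the inputs were added by rule. Other genes were named after their values were seen. Some list members are counted but not reported here by name. The fit was tested on simulated data. Scaling, filters, DESeq2 1.42.0, blocks and left-out libraries were the alternatives tried.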

Additional observations from a re-analysis of the deposited data

Results flagged for a closer look

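In 8 of 216 gene and group combinations, each of 4 ERM libraries, 1 library stood apart from the others by Dixon's ratio, the gap to the nearest value over the whole range on the log2 scale, at a ratio above the 95% critical value. Chance alone gives about 1 in 20 such groups.

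Enriched library 1 was the one apart for PPIB, an ER peptidyl-prolyl isomerase, with 42.5, 70.7, 72.7 and 76.2 CPM in ERM enriched libraries 1 to 4 (ratio 0.871), and for EIF5B, a translation factor, with 141, 178, 174 and 181 CPM (0.836). Enriched library 2 was apart for ABCA2, a lipid transporter, with 34.8, 23.1, 35.6 and 35.4 CPM (0.944), and for NCAM1, an adhesion protein, with 16.9, 22.7, 17.4 and 17.6 CPM (0.859). Enriched library 3 was lowest for KDELR3, with 8.85, 9.29, 6.65 and 8.94 CPM (0.854), and for NID2, a basement membrane protein, with 15, 14.8, 13.2 and 14.9 CPM (0.904).

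Among the ERM inputs, library 2 was apart for KPNA6, an importin, with 124, 130, 123 and 123 CPM (0.873). Input library 4 was apart for FGFR4, a receptor tyrosine kinase, with 42.4, 42, 41.9 and 46.3 CPM (0.874).

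SEC61B differed between the constructs in its enrichment over input, by 2.04 on the log2 scale in the edgeR fit without a block. Reads of the construct and of the cells' own gene cannot be told apart there.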

How the results depend on the processing

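Between the enriched libraries, the 935 calls became 1443 with DESeq2, 558 with these 6 libraries fitted alone, 149 at a log2 fold change of at least 1, 1719 with ERM libraries 1 and 2 and 3680 with 3 and 4. The 115 secretory higher calls became 173 with a replicate block on the number, 14 at that fold change, and 216 and 198 with the ERM pairs. The replicate block gave 2029 calls in all, though same-numbered ERM and NES libraries did not deviate together (r -0.065 and -0.007). The 137 input calls became 90 with RLE scaling, 348 with total counts, 784 with no filter, 680 with DESeq2, 223 fitted alone, 486 with the replicate block, and 920 and 3091 with the ERM pairs. The difference of enrichments, with 1 call, gave 240 with total counts, 104 with no filter, 472 with DESeq2, 952 with the pairs as a replicate block, and 778 and 1482 with the ERM pairs. Calls shared by both comparisons, 1 in all, became 175, 60, 296, 359, 426 and 885 in the same order.

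Leaving out 1 library gave 15 to 1190 calls between enriched libraries, 3 to 135 secretory higher calls, 2 to 298 between inputs, and 0 to 9 in the difference and in the shared calls. A lone NES library was assumed to vary like the other groups. The cause of these shifts was not tested. Of 110 named genes, 103 were called in the main fit, and most were named because of a call. None reversed under 21 settings, where a change of sign counted only if the gene was called in 1 of the fits. Since the genes were picked by their calls, this is a description and no check. Of 2310 values 1971 kept their side of the threshold, 334 lost the call and 5 gained it. Losses were most frequent in the fit without NES enriched library 1. The planned classes by hydrophobic stretches were not run, since no protein sequences were used here. Depth limits genes of few counts.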

Other observations

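Of 50 replication-dependent histone genes tested, 11 (22%, beside 3.27% of all genes) were higher in the ERM enriched libraries and none was lower, with a median log2 fold change of 0.90 (family chosen after the values were seen). HIST1H3B had 59.7, 43.5, 82.8 and 88.1 CPM in ERM, against 16.2 and 30.9 CPM in NES, a log2 fold change of 1.55 (SE 0.27, adjusted p = 0.00399) by edgeR. H2AC11 had 64.7, 53.2, 97.2 and 105 CPM in ERM, against 37.2 and 46.1 CPM in NES. In every ERM library both genes lay above NES. None of the 11 was called in the paired difference of enrichments, and the family's median was 0.47 between the inputs. On beads without labelling its median enrichment was 1.63, over 26 genes. With ERM libraries 3 and 4 alone 31 were higher and none lower, beside 10.2% and 12.5% of all genes. With 1 and 2 alone 9 were higher and 2 lower, beside 7.72% and 3.93% of all genes. No histone gene was called without NES enriched library 1, and 4 and 5 were without ERM enriched libraries 3 and 4. Most of these mRNAs lack a polyA tail, and the libraries were polyA selected; the part of either in the difference was not tested.

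Of 11 long noncoding RNAs tested, most known from the nucleus, MALAT1, KCNQ1OT1 and TUG1 were higher in ERM and NORAD, which is largely cytoplasmic, was lower. The list median was 0.36, within the range of the secretory list medians. Against the NES mean it was 0.30, 0.29, 0.20 and -0.03 in ERM libraries 1 to 4. Median enrichment over input was 0.40 in ERM and -0.43 in NES. MALAT1 had 439, 269, 218 and 221 CPM in ERM, against 85.2 and 155 CPM in NES, a log2 fold change of 1.25 (SE 0.32, adjusted p = 0.0386) by edgeR. KCNQ1OT1 had 30.1, 18.4, 13.3 and 13.7 CPM in ERM, against 7.65 and 7.47 CPM in NES, and HELLPAR had 28.8, 23.0, 19.1 and 16.2 CPM in ERM, against 9.002 and 9.19 CPM in NES. For each of these 3 RNAs ERM library 1 was the highest. On beads without labelling KCNQ1OT1 rose by 2.18 and HELLPAR by 3.26 on the log2 scale, while MALAT1 was at 0.55 and not called. NORAD had 856, 876, 738 and 674 CPM in ERM, against 1364 and 1070.0 CPM in NES, a log2 fold change of -0.63 (SE 0.16, adjusted p = 0.0236) by edgeR.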
